A study of Rattus norvegicus with 49 samples.

Results

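The genes described here were 9 that mark lymphocytes: Cd3e, Cd3d, Cd2, Cd5, Cd4 and Cd8a of T cells, and Cd79a, Cd79b and Ms4a1 of B cells. A gene was taken when a probe of the microarray carried a RefSeq accession that belonged to its symbol. The 9 genes themselves were chosen with earlier results of these data known. Of the 9 genes 7 had a probe, 1 probe each, among the 15148 gene symbols that the array measured. Cd79a and Ms4a1 had no matching probe and Cd79b was therefore the only B cell gene measured. All 7 probes passed the filter on dim probes, as did 25284 of the 30367 probes on the array.

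RNA of thyroid tissue was measured on 49 one-colour arrays, 1 array per rat, in male Sprague Dawley rats. Young rats were injected with radioactive iodine, 131I, at 5 weeks of age, and adult rats at 17 weeks of age. The young rats received 50 kBq and were examined 3, 6 or 9 months later, or 0.5, 5 or 500 kBq and were examined 9 months later. The adult rats received 50 kBq and were examined 3, 6 or 9 months later. Untreated controls were 4, 7, 10 or 13 months old, and each exposed group was compared with controls of the same age. Every group held 4 arrays, except for 3 arrays in the young 5 kBq group and in the controls of 7 and 13 months. Groups examined at the same age shared their controls, so that their comparisons were not independent of each other.

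T lymphocytes recognise antigen with a receptor whose signalling chains belong to the CD3 complex, helped by the coreceptors CD4 and CD8. B lymphocytes use a membrane antibody that signals through CD79A and CD79B. A healthy thyroid holds few lymphocytes between its follicles, and lymphocytes gather there in autoimmune thyroiditis. In rats CD4 is also carried by macrophages. In RNA of a whole tissue, fewer cells of a type and less RNA per cell cannot be told apart.

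Signals are given as the log2 of the processed signal minus the 75th percentile of the array, so that a higher, less negative value is a higher signal. The scale differs between probes and no gene is set against another by its level. A probe was well above background where the scanner software marked it so. One array stood apart. On replicate 2 of the young 50 kBq group at 3 months the 75th percentile of the signal was 61.0, against 783 on the next lowest array, 43.1% of the spots were well above background, and the weakest probe well above background lay at a log2 signal of -3.04. Its values for the dim lymphocyte genes lay far above all other arrays, and results are given with it (49 arrays), without it (48 arrays) or both. Where no array of a group was well above background, the group has only an upper bound. A fold against it is written as at least N-fold where every array of the other group was well above background. Otherwise it is given as a fold against the floor, which is not a lower bound. The bound takes, on each of its arrays, the higher of the gene's own signal and the weakest probe well above background. The controls of 13 months had a 75th percentile of 1333 to 1441, below the 1738 of the lowest array among the other controls, and 1302 of the 25284 probes differed between them and the controls of 4 months (adjusted p below 0.01 and a fold above 1.5 in limma). Against those controls, the 12 thyrocyte genes of the marker list were all higher at 13 months, with a median log2 fold change of 1.59, and the 6 squamous epithelium genes had a median of -6.58. The part of this difference in tissue in the results on the 13-month controls was not tested.

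Promoters are shown for 3 of the genes on whose values the results turn: Cd3e and Cd3d, both on chromosome 8, whose signals moved together across arrays, and Cd8a, which was well above background only on arrays of exposed rats. The RefSeq table of build GRCr8 held promoters of 6 of the 9 genes, each from 250 bases before to 50 bases after the start of the gene. The Cd3e promoter lies on the minus strand at chr8:54211721-54212020, that of Cd3d on the plus strand at chr8:54185269-54185568, and that of Cd8a on the plus strand at chr4:104923866-104924165. Capitals mark GGAA on either strand, the core letters of sites bound by factors of the ETS family, written TTCC where the match is on the other strand.
Cd3e: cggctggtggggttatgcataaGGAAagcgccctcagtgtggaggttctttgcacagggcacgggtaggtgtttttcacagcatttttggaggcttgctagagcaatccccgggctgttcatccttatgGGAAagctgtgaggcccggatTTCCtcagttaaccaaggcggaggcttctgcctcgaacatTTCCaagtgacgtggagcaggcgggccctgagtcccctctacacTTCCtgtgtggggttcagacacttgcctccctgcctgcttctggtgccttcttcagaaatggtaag
Cd3d: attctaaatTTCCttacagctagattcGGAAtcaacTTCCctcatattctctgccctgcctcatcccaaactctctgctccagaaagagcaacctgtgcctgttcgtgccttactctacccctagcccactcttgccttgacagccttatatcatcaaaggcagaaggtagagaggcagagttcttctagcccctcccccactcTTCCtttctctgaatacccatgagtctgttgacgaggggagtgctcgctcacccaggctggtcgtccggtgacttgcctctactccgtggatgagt
Cd8a: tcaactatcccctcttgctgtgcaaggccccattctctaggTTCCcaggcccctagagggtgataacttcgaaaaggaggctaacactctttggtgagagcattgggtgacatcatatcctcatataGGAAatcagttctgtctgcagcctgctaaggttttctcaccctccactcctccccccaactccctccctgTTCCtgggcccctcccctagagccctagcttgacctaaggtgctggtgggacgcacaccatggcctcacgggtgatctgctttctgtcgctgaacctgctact
GGAA was found 5 times in the Cd3e window, 4 times in that of Cd3d and 3 times in that of Cd8a. A match was present in 95.8% of all 33469 promoters of this length, with a median of 3. CANNTG, the letters of an E-box, was found 2 times in the windows of Cd3e and Cd79a, 4 times in that of Cd2 and 3 times in that of Cd5, but in neither the Cd3d nor the Cd8a window, and 72.1% of all promoters held it. ACCACA was found 2 times in the Cd2 window, in none of the other 5, and in 17.3% of all promoters.

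None of the 7 genes was called in any of the 14 comparisons between groups, in limma with all 49 arrays at an adjusted p below 0.01 and a fold above 1.5. Over the 98 pairs of gene and comparison, 10 had a p below 0.05 before adjustment, against 8.90% of all probes over the same comparisons, and the smallest adjusted p was 0.0223. Of the 10, 5 were in the comparison with the array of low signal, where 37.9% of all probes had such a p, and 2 in the adult 50 kBq group at 9 months, where 21.9% had. In 5 pairs an exposed group lay wholly above its controls and in none wholly below, against 4.43% and 4.25% over all probes in the 14 comparisons. Without the array of low signal 16 pairs had a p below 0.05, against 11.2% of all probes. With these 48 arrays 1 pair was called, Cd4 in the adult 50 kBq group at 9 months, where 4.45% of all probes were called and 30.7% had a p below 0.05. The share of all probes called was 0% to 0.0119% with 49 arrays in 8 of the 9 comparisons of an exposed with a control group, and 0.558% in the adult 50 kBq group at 9 months.

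**Figure D1:**
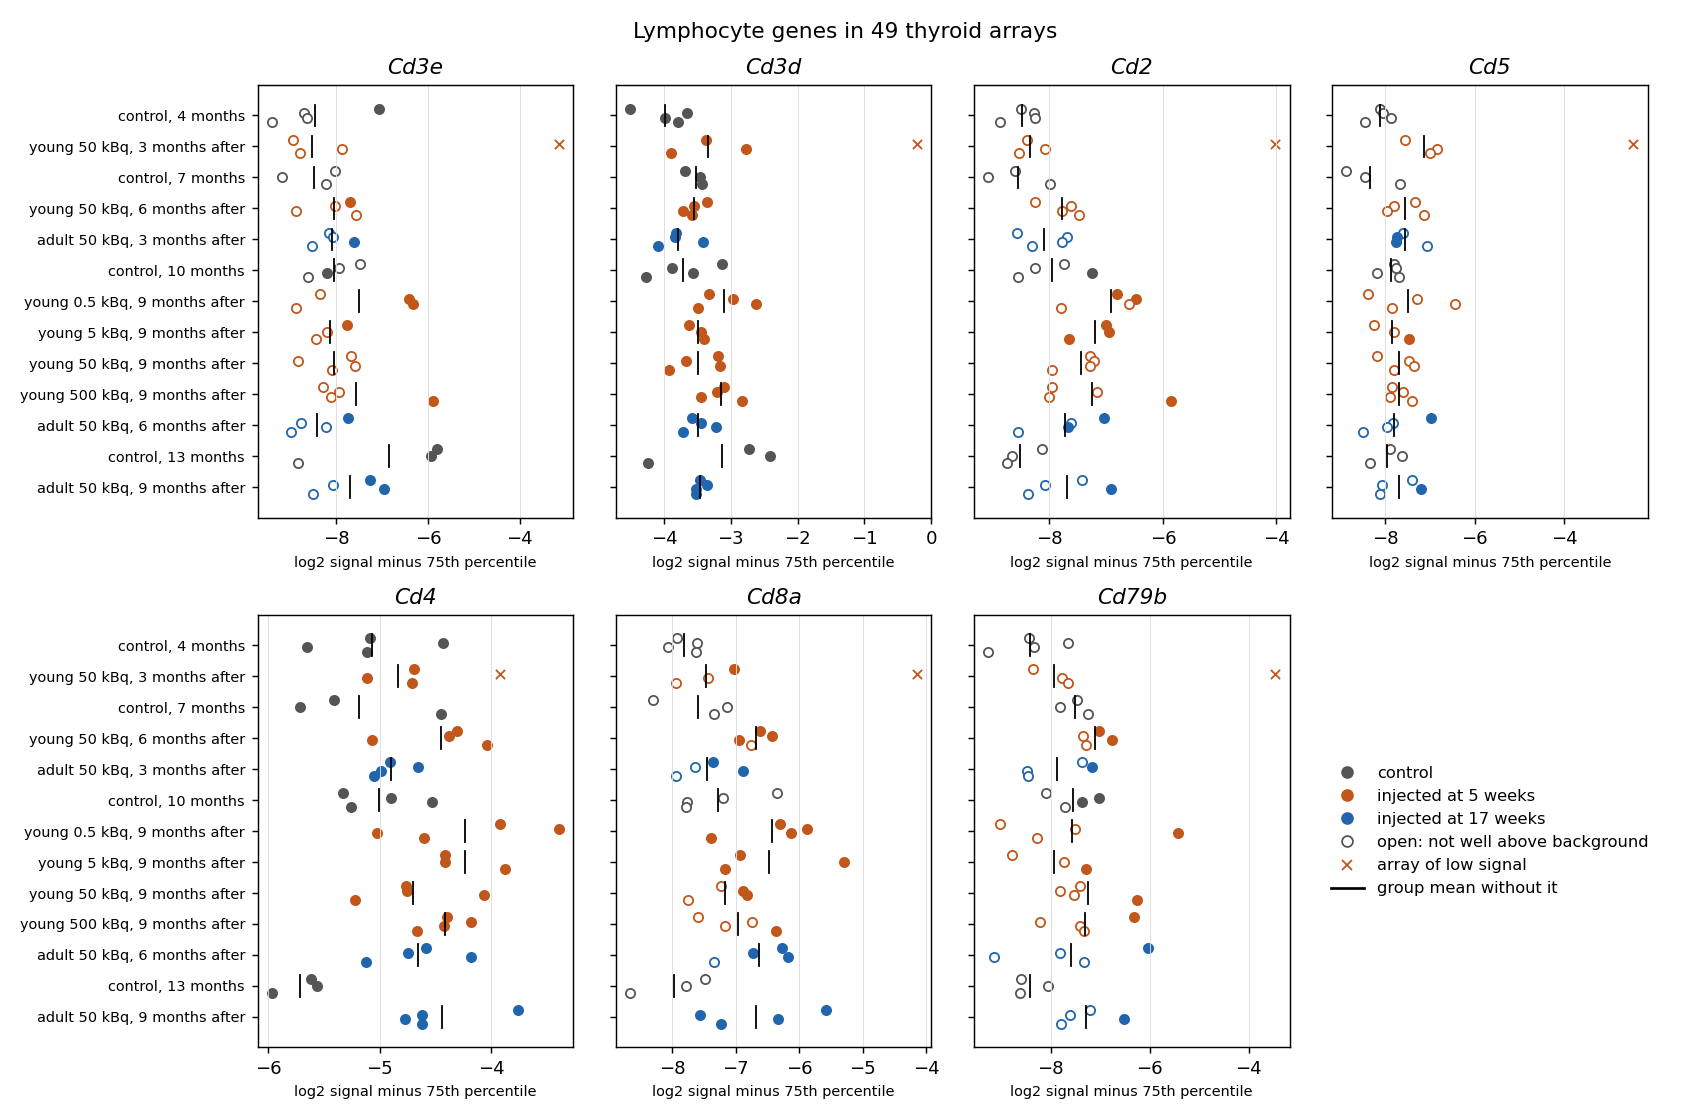
Log2 signal minus the 75th percentile of the array (x axis, a scale of its own for each gene) for 7 lymphocyte genes in 13 groups (y axis, ordered by age). Each point is 1 array, filled where the probe was well above background, and black lines are group means without the array of low signal (cross). Filled points of Cd8a occur in exposed groups only, and the 4 arrays of the adult 50 kBq group at 9 months lie above all 3 controls of 13 months for Cd4.

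Cd3e encodes the epsilon chain of the CD3 complex, without which no T cell receptor reaches the surface. Its probe was well above background on 9 of 35 exposed and 4 of 14 control arrays. Without the array of low signal, the log2 signal ranged from -8.99 to -5.90 with a median of -8.09 in exposed rats and from -9.41 to -5.81 with a median of -8.23 in controls, so that no exposed array lay above the highest control. The highest signals were in single animals: -5.81 and -5.93 in replicates 1 and 2 of the controls of 13 months, -5.90 in replicate 4 of the young 500 kBq group, and -6.34 and -6.42 in replicates 3 and 2 of the young 0.5 kBq group. Across the exposure comparisons with 48 arrays the log2 fold change ran from -0.85 to 0.56 and was above 0 in 5 of 9, or in 6 of 9 with 49 arrays. No comparison had a p below 0.05 before adjustment with 49 arrays.

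Cd3d encodes the delta chain of the same complex and was well above background on all 49 arrays. Exposed arrays ranged from -4.08 to -2.62 with a median of -3.45 without the array of low signal, and controls from -4.51 to -2.42 with a median of -3.67. The groups overlapped in every comparison with controls. At 3 months after 50 kBq in young rats the 4 values were -3.37, -0.21, -2.77 and -3.89, against -4.51, -3.66, -3.99 and -3.79 in the controls of 4 months. The second of the exposed values is the array of low signal. With it the log2 fold change was 1.43 (SE 0.41, adjusted p = 0.0248 in limma), and without it 0.64 (SE 0.29, adjusted p = 0.203). The change between 3 and 9 months in the young 50 kBq effect was -1.20 (SE 0.58, adjusted p = 0.281 in limma) with the array and -0.42 (SE 0.40, adjusted p = 0.618) without it.

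Cd2 encodes an adhesion receptor of T and natural killer cells. It was well above background on 9 of 35 exposed and 1 of 14 control arrays. The exposed arrays ranged from -8.57 to -5.85 with a median of -7.66 without the array of low signal, and controls from -9.08 to -7.25 with a median of -8.39. Of the 34 exposed arrays, 10 lay above the highest control and 5 of the 14 controls lay below the lowest exposed array, though most of these signals were not well above background. In 3 of the 9 exposure comparisons no array of either group was well above background. In the other 6 the fitted log2 difference was above 0, from 0.23 to 1.02 with 48 arrays. The largest, 1.02, was in the young 0.5 kBq group, where the 4 arrays were -6.82, -6.47, -6.60 and -7.79 against -7.74, -8.24, -7.25 and -8.55 in the controls of 10 months, and the groups overlapped. That difference was not called (adjusted p = 1.00 in limma with 49 arrays). In the young 50 kBq group at 3 months the signals were -8.40, -4.02, -8.08 and -8.53 against -8.50, -8.28, -8.26 and -8.86 in the controls of 4 months. No array of either group was well above background, the second exposed array being that of low signal, and no fold can be given.

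Cd5 encodes a surface receptor that dampens signals of the T cell receptor. It was well above background on 6 of 35 exposed and on 0 of 14 control arrays. At 3 months after 50 kBq in young rats the values were -7.56, -2.45, -6.85 and -7.01, all above the controls of 4 months at -8.11, -8.05, -7.87 and -8.46. Only the second, on the array of low signal, was well above background. With it the fold against the floor was 3.54, or 1.70 where the floor was the weakest single spot in place of the weakest probe (adjusted p = 0.0223 in limma with 49 arrays). The other exposed signals, not well above background, entered as they were, so that these values are not lower bounds. Without the array of low signal no array of either group was well above background and no fold can be given. In this comparison 3.97% of all probes had exposed arrays wholly above the controls. With 48 arrays 4 of the 9 exposure comparisons had an array well above background, on the exposed side alone, and the fitted log2 difference of Cd5 there lay between 0.02 and 0.79.

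Cd4 encodes the coreceptor that binds class II major histocompatibility molecules. Its probe was well above background on 48 of 49 arrays, all but the array of low signal. Exposed arrays ranged from -5.22 to -3.39 with a median of -4.62, and controls from -5.97 to -4.43 with a median of -5.29. Without the array of low signal 14 of 34 exposed arrays lay above the highest control, and 8 of 14 controls lay below the lowest exposed array. The log2 fold change was above 0 in 9 of 9 exposure comparisons, from 0.23 to 1.28 with 48 arrays, as it was for 0.85% of all probes. It was so for Cd8a too (0.10 to 1.30), and for Cd2 and Cd5, which in some comparisons had no array well above background. The 9 comparisons share 4 control groups. Within a scan date that held both groups, with 1 to 3 arrays on a side, the difference was not always above 0. Without the array of low signal it ran from -0.41 to 1.53 for Cd4 and from -0.39 to 2.11 for Cd8a. For Cd2 it ran from -0.84 to 1.55, and for Cd5 from -0.24 to 1.15.

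In the adult 50 kBq group at 9 months, the Cd4 signals were -3.76, -4.62, -4.77 and -4.62, and in the controls of 13 months -5.62, -5.57 and -5.97. All 4 exposed arrays thus lay above all 3 controls, as they did for 9.78% of all probes in this comparison. The mean was -4.44 ± 0.46 (SD, n = 4) against -5.72 ± 0.22 (SD, n = 3). The exact two-sided permutation test gave p = 0.0286, the smallest p that 4 against 3 arrays allow. In limma the log2 fold change was 1.28 (SE 0.34, adjusted p = 0.0287) with 49 arrays, short of the threshold. With 48 arrays the adjusted p was 0.00907 and the gene was called, as were 4.45% of all probes. On the scan date that held both groups, 2 exposed arrays averaged -4.26 and 2 controls -5.79. After normexp background correction in place of the processed signal, the log2 fold change was 0.13 (adjusted p = 0.809 in limma). Normexp here added an offset of 50 to every signal before the log. This shrinks differences between dim signals, and shifts them where the 75th percentiles of the groups differ. The normexp values of Cd4 and of the dimmer genes are therefore no independent check. The 75th percentile of the signal was 2426 to 3580 on the exposed arrays, against 1333 to 1441 on these controls.

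Of the 13 macrophage genes tested, 13 had a log2 fold change above 0 in the same comparison, against 40.8% of all probes, with a median of 0.44. None of them was called with 49 arrays and 1 was with 48. Adgre1, which encodes a macrophage surface receptor, had 1.41 (adjusted p = 0.0187 in limma with 49 arrays and 0.00547 with 48) and Csf1r, the receptor of a macrophage growth factor, had 1.20 (adjusted p = 0.0419 and 0.0136). The third, the mannose receptor Mrc1, had 1.18 (adjusted p = 0.0615 and 0.029). The level of the macrophage list, the mean log2 difference of its genes from their own means, ranged from -0.29 to 0.57 over the adult arrays and from -1.56 to 0.06 over the controls of 13 months. The 12 thyrocyte genes were all lower in the adult group (median -0.81) and the 9 blood genes all higher (median 0.54), none of them called. The level of 4 skeletal muscle genes was -2.87, -2.78 and -2.90 in the controls and 0.41, 0.70, -8.62 and 0.49 in the adult group. Without the third adult array the log2 fold change of Cd4 was 1.39. The level of 4 adipocyte genes was 0.39, 0.46 and -1.68 in the controls and from 0.40 to 0.94 in the adult group. The part of macrophages, blood, thyrocytes, muscle, fat and the low signal of these controls in the Cd4 result was not tested. The T cell genes Cd3e and Cd3d had log2 fold changes of -0.85 and -0.34 here, neither with a p below 0.05 before adjustment in limma.

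Further Cd4 differences did not reach the threshold. In the young 5 kBq group the signals were -4.41, -4.41 and -3.87, all above the controls of 10 months at -5.33, -4.90, -4.53 and -5.25. This gave a log2 fold change of 0.77 (SE 0.34, adjusted p = 1.00 in limma) and the exact two-sided permutation test gave p = 0.0571, while 8.55% of all probes were wholly above in that comparison. The same controls served the young 0.5 kBq group, whose signals of -3.92, -3.39, -5.03 and -4.60 overlapped them (log2 fold change 0.77, SE 0.32, adjusted p = 1.00 in limma). In the young 50 kBq group at 6 months the signals of -4.30, -4.38, -5.07 and -4.04 overlapped the controls of 7 months at -5.41, -5.71 and -4.45 (log2 fold change 0.74, SE 0.34, adjusted p = 0.730 in limma). With arrays weighted by their quality this last value was -0.04. All 4 exposed arrays of that comparison were scanned on 1 date and all 3 controls on others, so that exposure and scan date cannot be told apart there. After normexp the 3 values were 0.19, 0.38 and 0.30. The 50 kBq effect at 9 months was 0.97 larger in adult than in young rats on the log2 scale (SE 0.46, adjusted p = 0.359 in limma), and 0.03 after normexp.

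Cd8a encodes the alpha chain of the coreceptor of cytotoxic T cells. The probe was well above background on 23 of 35 exposed arrays and on 0 of 14 control arrays. In young rats examined 9 months after injection it was so on all 4 arrays of the lowest activity and all 3 of 5 kBq, on 2 of the 4 arrays of 50 kBq, and on 1 of the 4 arrays of the highest activity. In the young 50 kBq group it was so on 1 of 4 arrays at 3 months and 3 of 4 at 6 months, and in adult rats on 2, 3 and 4 of 4 arrays at 3, 6 and 9 months. Within the first scan date the counts were 11 of 17 exposed and 0 of 7 control arrays, within the second 5 of 8 and 0 of 5, and within the third 7 of 9 and 0 of 2, without the array of low signal. This split was noticed in the data and not planned, and it was seen for 1 of the 1641 probes well above background on 20 to 35 arrays (0.0609%), Cd8a itself.

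The mark depends on the array as well as on the gene. The weakest probe well above background, its floor, lay at a median log2 signal of -8.27 on the 34 exposed arrays and -7.73 on the controls, and the 75th percentile had medians of 2887 and 2115. Among the 3413 probes well above background on 10 to 39 arrays, 76.2% had the larger share among exposed arrays. Among the 102 probes well above background on as many arrays as Cd8a, the median was 5 of the 14 control arrays. The part of the lower floor in the Cd8a counts was not tested. By signal the groups overlapped: exposed arrays ranged from -7.94 to -5.30 with a median of -6.91 and controls from -8.66 to -6.34 with a median of -7.70, 8 of 34 exposed arrays lay above the highest control, and 3 of 14 controls lay below the lowest exposed array.

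**Figure D2:**
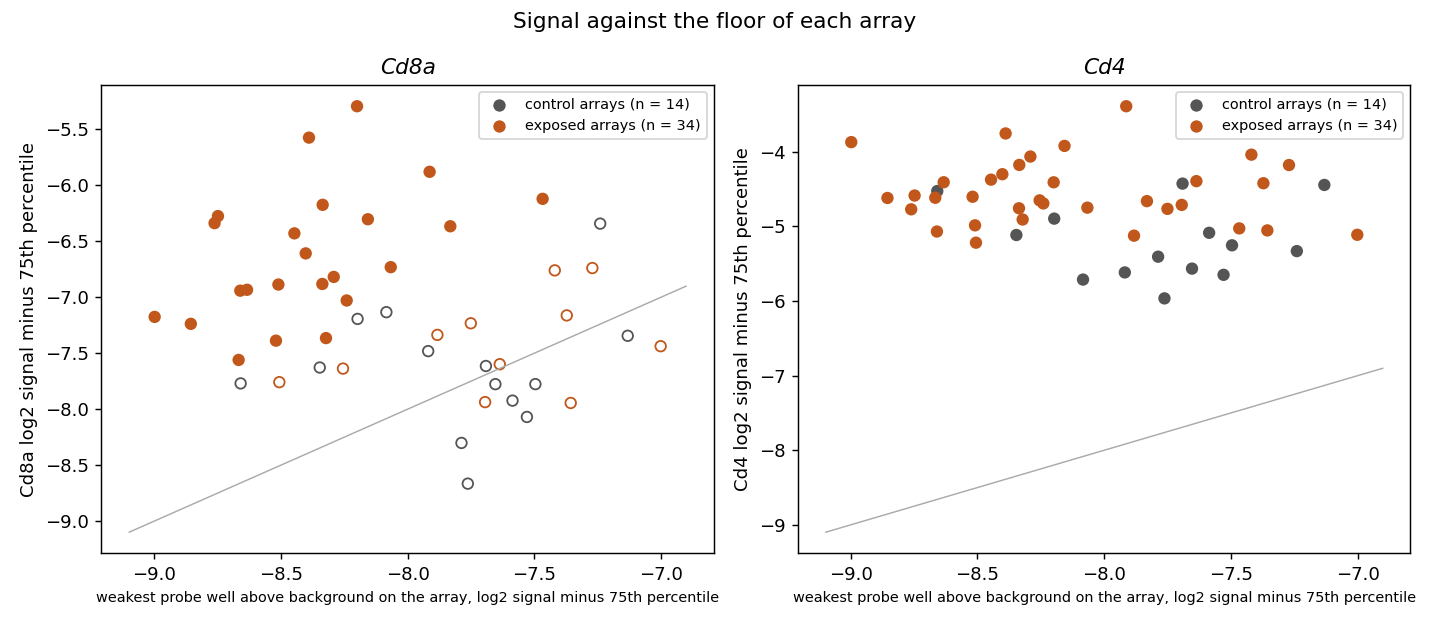
Log2 signal of Cd8a (left) and Cd4 (right) on the y axis against the log2 signal of the weakest probe well above background on the same array (x axis, both minus the 75th percentile) for 34 exposed and 14 control arrays. Filled points are well above background and the grey line marks equal values. For Cd8a the filled points are 23 exposed arrays and the 14 control arrays are open, whereas Cd4 lies above the floor on all 48.

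The difference in Cd8a was not called in any exposure comparison. In the young 50 kBq group at 6 months the signals were -6.61, -6.43, -6.94 and -6.76, all above the controls of 7 months at -8.30, -7.13 and -7.34, a pattern that 1.67% of all probes had in this comparison. Of these 4 arrays 3 and none of the controls were well above background. The fold against the floor was 1.59, with the remaining exposed signal taken as it was (adjusted p = 0.825 in limma, and p = 0.0286 in the exact two-sided permutation test). With the weakest single spot as the floor no bound above 1 was left. The fitted log2 difference was 0.91 (SE 0.57). All 4 exposed arrays were scanned on 1 date and all 3 controls on others, and with scan date as a block the value was 0.80. With slide as a block it was 0.39, and after normexp 0.10. In the adult 50 kBq group at 9 months, the signals were -5.58, -7.56, -6.34 and -7.24 and those of the controls of 13 months -7.48, -7.78 and -8.66. The groups overlapped. As no control was well above background, the fold was at least 1.94, or 1.04 with the weakest single spot as the floor (adjusted p = 0.167 in limma, and 0.0425 with 48 arrays). The fitted log2 difference was 1.30 (SE 0.57), and -0.44 after normexp. At 3 months after the same activity in young rats 1 of 4 exposed arrays was well above background, and the fitted log2 difference fell from 1.17 (adjusted p = 0.0988 in limma) to 0.34 without the array of low signal. At 0.5 kBq all 4 arrays, at -6.31, -5.88, -6.12 and -7.39, and at 5 kBq all 3 arrays, at -6.93, -5.30 and -7.18, were well above background. The controls of 10 months, at -6.34, -7.19, -7.77 and -7.78, overlapped both and were not, so that the fold was at least 1.71 at 0.5 kBq and 1.66 at 5 kBq, or 1.30 and 1.26 with the weakest single spot as the floor (adjusted p = 1.00 for both in limma).

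Cd79b encodes the beta chain that carries the signal of the B cell receptor. It was well above background on 9 of 35 exposed and 2 of 14 control arrays. Exposed arrays ranged from -9.15 to -5.43 with a median of -7.47 without the array of low signal, and controls from -9.27 to -7.02 with a median of -7.93. Its highest signals were in single animals, -5.43 in replicate 3 of the young 0.5 kBq group and -6.04 in replicate 1 of the adult 50 kBq group at 6 months. In the 8 exposure comparisons with an array well above background the fitted log2 difference was above 0 in 4, from -0.39 to 1.14 with 48 arrays. At 3 months after 50 kBq in young rats it was not well above background on any array of either group. The signals there were -8.36, -3.47, -7.77 and -7.65, the second on the array of low signal, and -8.44, -7.65, -8.35 and -9.27 in the controls, and no fold can be given. In the adult 50 kBq group at 9 months the signals of -7.21, -7.61, -6.52 and -7.79 lay above all controls of 13 months, at -8.61, -8.05 and -8.62, as 9.78% of all probes did. The third of the exposed arrays alone was well above background. The fold against the floor was 1.41 (adjusted p = 0.398 in limma, and p = 0.0571 in the exact two-sided permutation test). It took the other exposed signals as they were and is not a lower bound. No fold above 1 was left with the weakest single spot as the floor. The fitted log2 difference was 1.14, and -0.64 after normexp.

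The 9 exposure effects were also averaged in the same limma fit, a summary chosen after seeing the data. For Cd8a and Cd5, which no control array showed well above background, and for Cd2, Cd3e and Cd79b, which few did, the means take in signals near background. Averaged over groups, Cd4 was 0.61 higher in exposed rats on the log2 scale (SE 0.16, adjusted p = 0.653 in limma), Cd2 0.72 (SE 0.29, adjusted p = 1.00) and Cd8a 0.69 (SE 0.27, adjusted p = 1.00). For Cd5 the mean was 0.53, for Cd79b 0.32, for Cd3d 0.29 and for Cd3e 0.21, so that 7 of 7 were above 0, as were 54.6% of all probes. Of the 7 genes, 3 had a p below 0.05 before adjustment, against 2.82% of all probes. Cd8a and Cd5 passed the filter on dim probes through exposed arrays alone, and Cd2 was well above background on 1 control array. The genes also share arrays, controls and scaling, so that these counts give no independent support for an effect. No gene and none of the 25284 probes (0%) was called. With 48 arrays the means were 0.59 for Cd4, 0.60 for Cd2 and Cd8a, 0.40 for Cd5, 0.21 for Cd3d, 0.20 for Cd79b and 0.06 for Cd3e. After normexp they were 0.29 for Cd4, 0.10 for Cd8a and 0.000187 for Cd2. Without the comparison against the controls of 13 months, the mean of the other 8 effects was 0.50 for Cd4, 0.57 for Cd2 and 0.51 for Cd8a with 48 arrays.

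**Figure D3:**
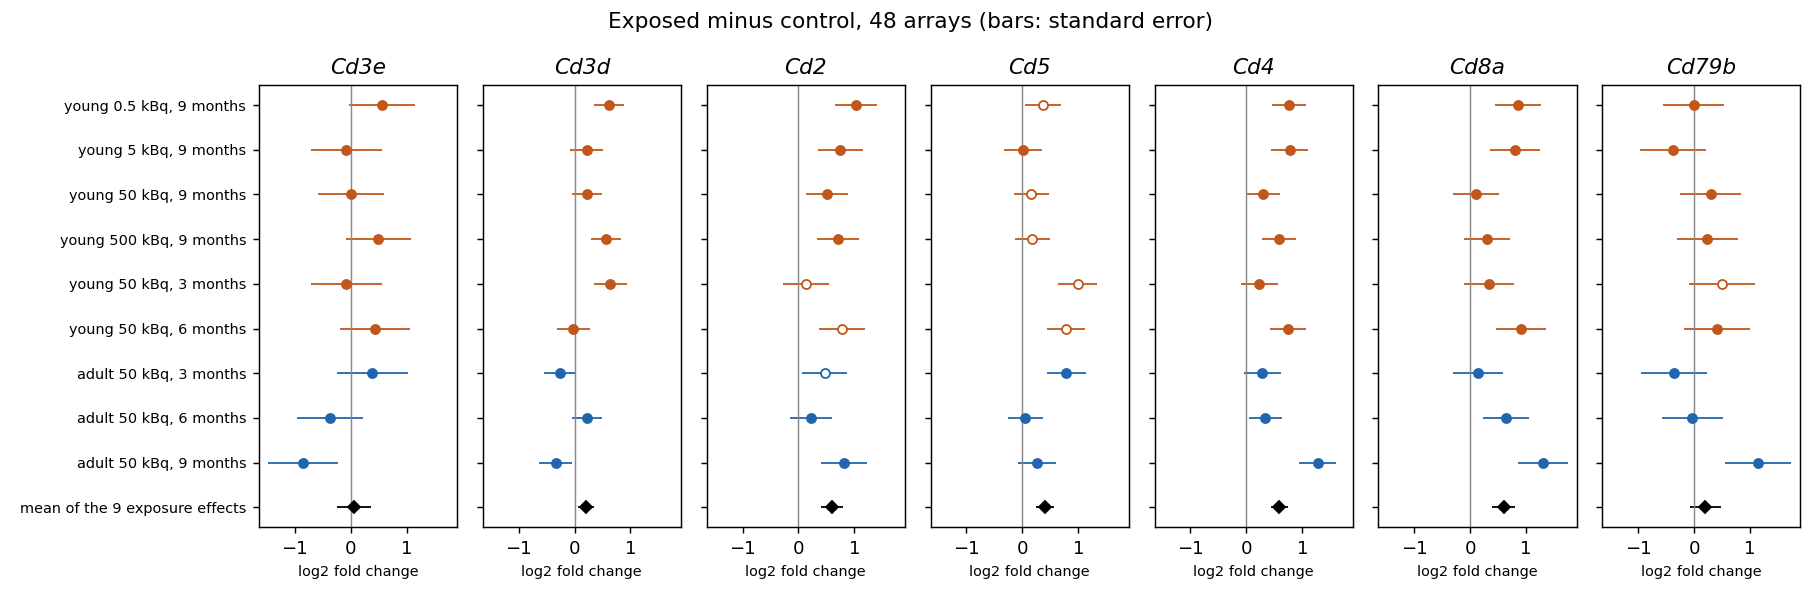
Log2 fold change of exposed over control arrays (x axis) with its standard error from limma for 7 lymphocyte genes in 9 comparisons and their mean (y axis), fitted on 48 arrays. Open points are comparisons in which no array of either group was well above background, and the 9 comparisons share 4 control groups. The 9 points of Cd4 lie above 0, as for 0.85% of all probes, and so do the 9 of Cd8a, Cd2 and Cd5, with some open points in the last 2 genes. For Cd3e 5 of the 9 do.

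Other genes of lymphocytes and their neighbours came from lists, and none was called in this mean. Of 21 other T cell genes tested 18 were above 0, with a median of 0.33 that became 0.21 with 48 arrays. The largest values were 0.73 for Txk, a kinase of T cell receptor signalling, 0.65 for Il7r, the interleukin-7 receptor, and 0.53 for Cd3g, the gamma chain of the CD3 complex. Of 17 other B cell genes 10 were above 0, with a median of 0.07, led by Pou2af1 with 0.68, Cd37 with 0.63 and Blnk with 0.55. Of 14 genes of natural killer and cytotoxic cells 12 were above 0 (median 0.33), and of 5 plasma cell genes 2 were (median -0.24). Of 4 thymus genes tested 1 was above 0 (median -0.03), and of 10 genes of lymphoid tissue stroma 8 were (median 0.23). Macrophage genes were above 0 in 13 of 13 (median 0.41), class II major histocompatibility genes in 7 of 7 (median 0.43), genes shared by leukocytes in 13 of 13 (median 0.33) and dendritic cell genes in 5 of 6 (median 0.33). With 48 arrays the medians were 0.01 for B cells, 0.24 for natural killer and cytotoxic cells, -0.32 for plasma cells, -0.14 for thymus, 0.14 for stroma, 0.42 for macrophages and class II, 0.29 for leukocytes and 0.35 for dendritic cells. The median over all probes was 0.02 with 49 arrays and -0.0023 with 48. The 12 thyrocyte genes had a median of 0.30, or 0.21 with 48 arrays, with 10 above 0.

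In the adult 50 kBq group at 9 months none of the 21 other T cell genes was called, and 12 of them were above 0 with a median of 0.02. The largest differences were 1.36 for Cd8b, the beta chain of the CD8 coreceptor (adjusted p = 0.292 in limma, 0.022 with 48 arrays), -1.24 for Gata3 and -1.16 for Skap1. Of 17 other B cell genes 5 were above 0, with a median of -0.29. The median of the 7 lymphocyte genes was 0.82, and that of all probes -0.14. The 0.82 takes in signals near background. Cd2, Cd5, Cd8a and Cd79b were well above background on 0 of the 3 controls. On the adult side Cd2, Cd5 and Cd79b were so on 1 of 4 arrays each, and Cd8a on all 4. Cd3d, well above background on every array, had a log2 fold change of -0.34, and Cd3e had -0.85.

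No slope on the injected activity passed the threshold for these genes. Over the 15 arrays of young rats 9 months after injection, the change in log2 signal for each factor of 10 in activity, in limma, ran from -0.23 for Cd8a (SE 0.14, adjusted p = 1.00) to 0.13 for Cd79b (SE 0.20), and the slope of Cd4 was -0.10 (SE 0.10). No probe (0%) was called, and 646 of 25284 (2.55%) had a p below 0.05. The medians of the 7 fitted log2 differences at 0.5, 5, 50 and 500 kBq, all against the controls of 10 months, were 0.61, 0.22, 0.22 and 0.50. In replicate 3 of the young 0.5 kBq group 4 of the 5 genes well above background there were among the 4 highest of the 48 arrays, with Cd3e at -6.34, Cd3d at -2.62, Cd8a at -6.12 and Cd79b at -5.43. Cd4 lay at -5.03, and Cd2 and Cd5, at -6.60 and -6.44, were not well above background on that array.

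Among controls of different ages none of the 7 genes was called. Controls of 13 months were 1.60 above those of 4 months in Cd3e (SE 0.85, adjusted p = 0.178 in limma, or 0.0482 with 48 arrays) and 0.86 in Cd3d (SE 0.44, adjusted p = 0.166, or 0.0233). The difference rested on 2 animals: Cd3d was -2.72, -2.42 and -4.23 in the controls of 13 months and -4.51 to -3.66 in those of 4 months, with overlap. In the same animals Cd2 lay at -8.12, -8.67 and -8.75 and was well above background in none. Of all probes 5.15% were called between these ages, 0.00396% between 7 and 4 months and 0.0119% between 10 and 4 months. At 7 and 10 months the median difference of the 7 genes from 4 months was -0.03 and 0.40. At the same age, adult and young rats that had received 50 kBq differed both in age at injection and in time since injection. These cannot be told apart here. In the 7 genes the rats did not differ detectably, with medians of -0.31 at 7 months and -0.11 at 10 months and no p below 0.05 before adjustment in limma. Of all probes 0% and 0.0119% were called.

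Signals of gene pairs were correlated across arrays for 10 pairs, with permutation p-values adjusted over the pairs. The arrays share their groups, their scaling and the low-signal array. Of the 48 arrays without it, Cd3e was well above background on 13, Cd2 on 10, Cd5 on 5, Cd8a on 23 and Cd79b on 11. Each r of Cd3e below thus rests largely on signals near background, on the side of Cd3e at least. With 48 arrays Cd3e followed Cd3d (Pearson's r = 0.59, permutation p = 1e-05, the smallest possible, adjusted p = 3.33e-05, Spearman's rho = 0.48 with permutation p = 0.00065), with r of 0.61, 0.75 and 0.75 within the 3 scan dates. With Cd2 its r was 0.48 (adjusted permutation p = 0.00158, rho = 0.44 with permutation p = 0.00182). With Cd5 r was 0.39 (adjusted permutation p = 0.0104, rho = 0.39 with permutation p = 0.00583) and with Cd8a 0.32 (adjusted permutation p = 0.0331, rho = 0.35 with permutation p = 0.017), and within the scan dates 0.30, 0.38 and 0.52 for Cd5 and 0.39, 0.23 and 0.08 for Cd8a. Those for Cd2 were 0.46, 0.52 and 0.59. With Cd79b r was 0.22 (adjusted permutation p = 0.164, rho = 0.25 with permutation p = 0.0879), against 0.52 with the array of low signal. With Ptprc, which encodes the leukocyte common antigen CD45, r was 0.47 (adjusted permutation p = 0.00158, rho = 0.46 with permutation p = 0.00103), against 0.14 with that array. Within the scan dates r was 0.18, 0.26 and 0.13 for Cd79b and 0.42, 0.51 and 0.62 for Ptprc.

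Over all 48 arrays Cd4 and Cd3e were not detectably correlated (r = 0.09, adjusted permutation p = 0.562, rho = 0.15 with permutation p = 0.303), and r was 0.12, -0.11 and 0.75 within the 3 scan dates of 24, 13 and 11 arrays. The Cd3e probe was well above background on 13 of the 48 arrays, so that this r rests largely on signals near background. Cd3d, well above background on all 48, was not paired with Cd4. Cd4 followed Csf1r (r = 0.92, adjusted permutation p = 3.33e-05, rho = 0.91 with permutation p = 1e-05), with r of 0.94, 0.92 and 0.93 within the scan dates and 0.91 for deviations from the group means. Its r with C1qa, a complement gene of macrophages, was 0.70 (adjusted permutation p = 3.33e-05, rho = 0.68 with permutation p = 1e-05), and 0.68, 0.52 and 0.93 within the scan dates. Without the 2 arrays farthest from the median of the first gene named in each pair, r was 0.50 for Cd3e with Cd3d, 0.45 with Cd2, 0.43 with Cd5, 0.36 with Cd8a, 0.32 with Cd79b, 0.47 with Ptprc and 0.21 with Cd4. It was 0.92 for Cd4 with Csf1r and 0.62 with C1qa. With all 49 arrays r was 0.78 for Cd3e with Cd3d, 0.68 with Cd2, 0.70 with Cd5, 0.54 with Cd8a and 0.20 with Cd4. It was 0.92 for Cd4 with Csf1r and 0.69 with C1qa. Cd79b and Cxcl13, the chemokine that draws B cells into follicles, were not detectably correlated (r = -0.18, adjusted permutation p = 0.236, rho = -0.24 with permutation p = 0.105), with r of -0.08, -0.48 and -0.22 within the scan dates and -0.02 with 49 arrays.

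**Figure D4:**
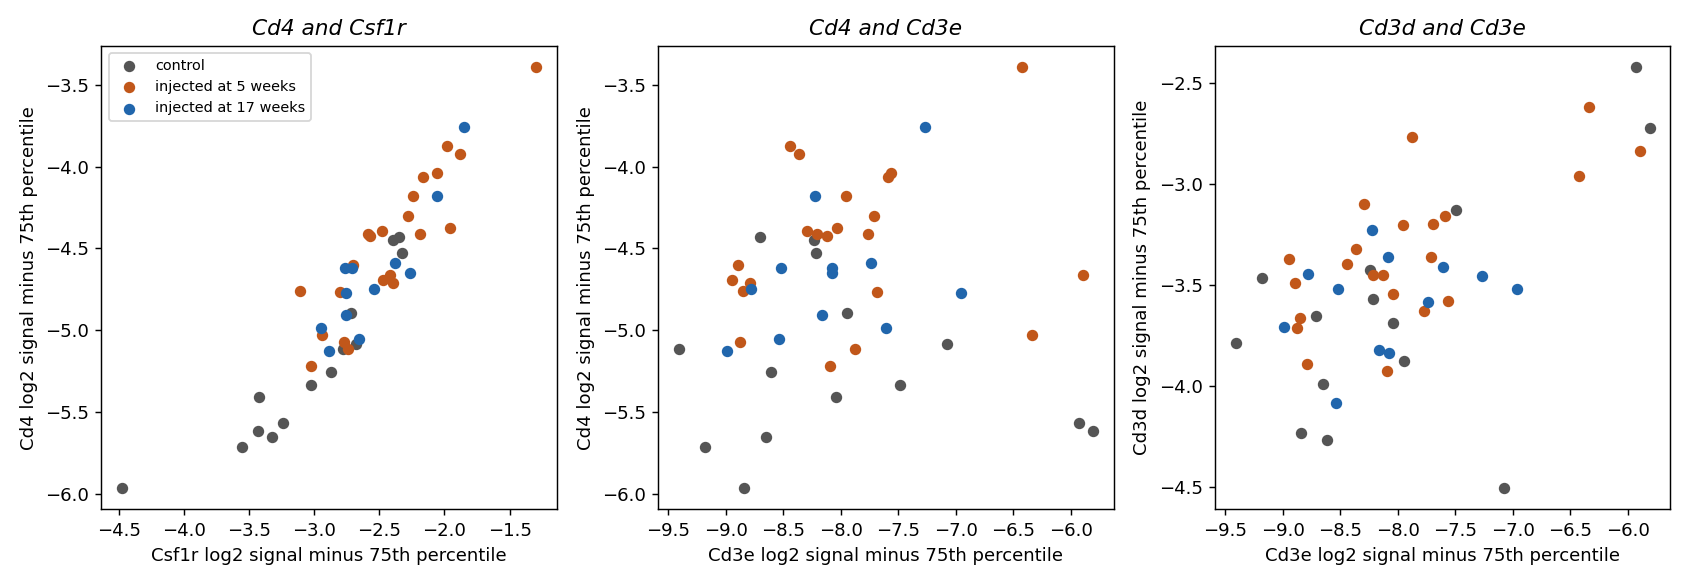
Log2 signals minus the 75th percentile of Cd4 against Csf1r (left), Cd4 against Cd3e (middle) and Cd3d against Cd3e (right) on 48 arrays, 1 point per array, coloured by control, injection at 5 weeks and injection at 17 weeks. Cd4 and Csf1r fall along a line (r = 0.92), whereas Cd4 and Cd3e do not (r = 0.09). The Cd3e probe was well above background on 13 of the 48 arrays, that of Cd4 on all 48.

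The genes most like the mean of the 5 T cell genes other than Cd4, by Pearson's r over 48 arrays among 13164 genes, were Cd3g (0.93), Ctsw (0.79), which encodes a protease of cytotoxic cells, Calhm6 (0.77), Cd247 (0.76), the zeta chain of the T cell receptor complex, and Neurl3 (0.75). With all 49 arrays they were Stap1, Spi1, Sit1, Epsti1 and Ccr6 (0.89 to 0.87). With Cd79b, the 49 arrays gave Klf1, Lipc, Rwdd2a, Grap2 and Gata1 (0.79 to 0.73). Over 48 arrays the genes most like Cd79b were Klf1 (0.66), Nfe2 (0.64), Lipc (0.59), Rwdd2a (0.58) and Gata1 (0.58), of which Klf1, Nfe2 and Gata1 encode factors of red cell precursors. For deviations from group means over the 48 arrays Klf1 (0.70) stayed among the 5 genes of highest r, behind Krt9 (0.76). Nfe2 and Gata1 did not. The Cd79b probe was well above background on 11 of the 49 arrays, and that of Gata1 on 5.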

How the data were processed

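Thyroid RNA of 49 rats was hybridised to one-colour Agilent arrays. The authors deposited the output of the scanner software for each array, in which the processed signal is a linear intensity after background subtraction, together with marks of 0 or 1 for each spot (well above background, outlier, saturated). The table of the whole series, which holds the authors' own fold changes, was not used.

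Of 62976 spots per array, 4259 control spots and outlier spots were left out, and spots of a probe were averaged. No spot was saturated. The log2 intensity minus the 75th percentile of the array was fitted with limma (3.58.1, R 4.3.3), 1 mean per group over all 13 groups. Probes had to be well above background on at least 3 of 49 arrays. A probe was called at an adjusted p (Benjamini-Hochberg over 25284 probes) below 0.01 and a fold above 1.5. A gene was read on its brightest probe. The number of arrays limits the precision. Each array held RNA of 1 rat, so that p-values measure the spread between rats as well as between arrays. No arrays were identical (highest r 0.993).

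Probes were named through RefSeq accessions. The members and the lists of other genes were chosen with earlier results of these data known. A member is given with full statistics where its p was below 0.05 before adjustment or its groups did not overlap. Of the lists, counts are given with the 3 largest values, and for likeness the 5 genes of highest r. The mean of exposure effects, the detection counts, the bounds against single spots and the values without the array of low signal were chosen after seeing the data. A probe was well above background on an array where at least as many of its spots were marked so as were not. Normexp background correction (offset 50) was run on the median spot signal in place of the planned mean. The offset weighs most on dim probes. Array weights were estimated gene by gene, since the default estimate did not converge. Correlations used 100000 permutations. All tests were two-sided. Same-numbered replicates of compared groups correlated with r from -0.52 to 0.70 in their deviations, so that the numbers were not taken to pair rats. The fit was tested on simulated data.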

Additional observations from a re-analysis of the deposited data

Results flagged for a closer look

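In groups of 4 arrays, 6 of the 70 combinations of gene and group held an array whose gap to its nearest neighbour took up more of the range of the group than Dixon's critical value allows, where chance gives about 1 in 20. Of these, 3 were on the array of low signal, replicate 2 of the young 50 kBq group at 3 months, with log2 signals of -4.02 for Cd2, -2.45 for Cd5 and -3.47 for Cd79b, each above the other 3 arrays. Of these genes Cd5 alone was well above background on that array. In replicate 4 of the young 500 kBq group Cd3e was -5.90, with the next array at -7.96. In replicate 1 of the adult 50 kBq group at 9 months Cd4 was -3.76, with the next array at -4.62. In replicate 4 of the young 50 kBq group at 9 months Cd2 was -7.95, below the next array at -7.29, and none of its 4 arrays was well above background.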

How the results depend on the processing

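The count of lymphocyte genes called was 0 in each set of comparisons. It became 3 for adult rats, 2 for control ages and 2 for the differences between effects with array weights, under which the low-signal array had a weight of 0.0231 (median 1.06). It became 2 for young rats at 3 and 6 months and 1 for adult rats at an adjusted p below 0.05. With each array left out in turn it ran from 0 to 2 in young rats at 3 and 6 months (2, Cd3d and Cd5, without replicate 1 or 4 at 3 months) and from 0 to 1 in adult rats (1 without the low-signal array), with 0 elsewhere. Over all probes, 6 were called for the activities at 9 months, 3 for young rats at 3 and 6 months, 141 for adult rats, 1306 for control ages, 3 for adult against young rats, and 0 for the differences between effects, the mean effect and the slope. Quantile normalization gave 1 for the differences. Normexp gave 13 for adult rats and 500 for ages. No filter on dim probes gave 5 for young and 9 for adult rats. Replicate number as a block gave 0 for young rats, 9 for adult rats and 788 for ages, and changed no call of a lymphocyte gene. Scan date as a block gave 3 for adult rats and 2380 for ages, and slide as a block 3 for activities, 0 for young rats, 319 for adult rats and 3252 for ages. Array weights gave 125, 322, 8379, 9156, 11, 5961 and 27 in the order above without the slope. Averaged probes gave 2 for activities and 1 for adult against young rats. An adjusted p below 0.05 gave 4279 for young rats, 1146 for adult rats, 4479 for ages and 3 for the mean effect. Fits of 2 groups alone gave 0 for young rats, adult rats, ages and adult against young rats. Leaving out arrays gave 0 to 9, 0 to 4269, 0 to 1134, 15 to 4030, 0 to 3, 0 to 4 and 0 to 3 in the same order. The count for adult rats was 0 without replicate 1 or 2 of either the adult group at 9 months or the controls of 13 months. The median of the lymphocyte genes in adult rats at 9 months was -0.63 with normexp, and the difference from young rats -0.65. In young rats at 3 months the median was 0.25 with slide as a block and 0.33 with array weights (0.34 to 1.81 with arrays left out), and the change to 9 months was 0.045 and -0.20 (-1.60 to -0.20). Reversed values were -0.15 for Cd8a in young rats at 3 months with quantile normalization, -0.44 for Cd8a and -0.64 for Cd79b in adult rats at 9 months with normexp, and -0.041 for Cd4 in young rats at 6 months with array weights. The cause was not tested. With all 49 arrays the correlation of Cd3e with Cd4 was 0.20. It was 0.32 over deviations from group means and -0.14 after quantile normalization. After the latter, also with 49 arrays, that with Cd8a was 0.14 and with Ptprc -0.072. That of Cd79b with Cxcl13 was -0.02 with 49 arrays and 0.046 over their deviations. With 48 arrays the values over deviations were 0.17 for Cd3e with Cd4 and -0.17 for Cd79b with Cxcl13. Leaving out the low-signal array took Cd3e with Cd79b from 0.52 to 0.22 and with Ptprc from 0.14 to 0.47. Of all 167 single-gene values under other settings, 159 kept their sign and, as before, were not called. The 4 reversed values are among the 167. Another 4 kept their sign and fell below the adjusted p threshold of their setting. Of the 194 medians under other settings 24 turned their sign and 56 turned it or moved by over 1.5 times. The replicate spread of a gene (mean SD 0.80 over the 7 genes) was larger than 15 of the 18 medians, so that a move within it says little of stability. It includes the low-signal array, without which the SD ran from 0.39 for Cd3d to 0.85 for Cd3e. It is the spread of single genes, not of a median of 7.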
